A study of Mus musculus with 9 samples.

Results

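Matricellular proteins and the glycoproteins of elastic fibres were followed as transcripts in the right ventricle (RV) of mice given monocrotaline. A total of 10 genes were chosen by name, with earlier results of these data known: Sparc, Sparcl1, Smoc2, Tnc, Spp1, Fn1, Mgp, Fbn1, Fbln2 and Fbln5. Of these, 8 had a probe set annotated to that gene alone, and each of the 8 had exactly 1 such probe set, among 18820 genes measured. Spp1, which encodes osteopontin, and Fbn1, which encodes fibrillin-1, had no such probe set in the annotation used and were not analysed here. In the mouse assembly GRCm38.p6 the SPARC family genes lie apart, Sparc at chr11:55394159-55420080, Sparcl1 at chr5:104079108-104114088 and Smoc2 at chr17:14279490-14404790. Tnc lies at chr4:63959785-64047015, Fn1 at chr1:71585473-71653280 and Fbln5 at chr12:101746565-101819119. Mgp (chr6:136872435-136875823) and Fbln2 (chr6:91212460-91272540) share a chromosome.

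All animals were female C57BL/6 mice that arrived at 8 weeks of age, and RV tissue from 3 mice per group was put on arrays, 1 array per mouse. Sham mice (620, 624 and 625) received saline and ate the standard semi-synthetic AIN-93M diet. MCT mice (640, 641 and 644) ate the same diet and received monocrotaline (MCT), a plant alkaloid that injures the vessels of the lung, at 600 mg/kg under the skin every week for 8 weeks from 10 weeks of age. MCT+NI mice (615, 617 and 619) received the same injections with a nutritional intervention (NI), a diet of equal energy enriched in protein, leucine, fish oil and oligosaccharides. All groups were put on their diets before the first injection. No group received the intervention without MCT, and the methods state that the mice put on arrays were matched for disease severity, so the 3 mice of a group were not a random draw from it. The comparison of MCT with sham mice asked what the pulmonary hypertension model did to these transcripts. That of MCT+NI with MCT mice asked whether the diet altered this response among mice matched for disease severity. Values are log2 intensities, so a difference of 1 is a doubling of the signal, and the level of a gene was compared only between mice.

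Matricellular proteins are secreted into the extracellular matrix, where they bind cells, collagen and growth factors without building the fibre network themselves. SPARC and its relatives bind collagen and calcium, tenascin-C is laid down by fibroblasts at sites of injury, and fibronectin gives cells a scaffold that they hold through integrins. Elastic fibres are made of elastin on a sheath of fibrillin microfibrils, and fibulins tie these parts together. Matrix Gla protein, encoded by Mgp, holds back calcification and binds bone morphogenetic proteins. In the heart these genes are used mainly by fibroblasts, vascular cells and valve cells.

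The libraries were not alike in atrial transcripts, which bears on several results below. The mean log2 value of 6 genes that mark atrial muscle (Myl7, Myl4, Nppa, Sln, Dkk3 and Bmp10) lay between 10.17 and 11.05 in the sham mice. It was 5.13, 5.50 and 10.69 in MCT mice 640, 641 and 644, and 9.16, 6.01 and 5.24 in MCT+NI mice 615, 617 and 619. MCT mouse 644 thus lay within the sham range and MCT+NI mouse 615 about 1 log2 unit below it, and the other 4 treated mice lay far below. The mean of 7 ventricular muscle genes, among which Actc1 and Myl2 were brightest, lay between 10.84 and 10.93 in all 9 mice. Each result was therefore also computed with the atrial mean as a covariate and without mice 644 and 615. Without them, every treated mouse had a low atrial mean and every sham mouse a high one. That fit therefore cannot separate treatment from atrial transcripts. The fit with the covariate can do so only in part, because it rests largely on mice 644 and 615. Calls lost and signs changed with the covariate carry that limit.

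In MCT mice, 5 of the 8 measured genes rose over the sham level: Sparc, Sparcl1, Smoc2, Tnc and Fn1. A gene was taken to pass where its limma p, adjusted over all 18820 genes, was under 0.05. No member fell, and Mgp, Fbln2 and Fbln5 did not pass. Over all genes, 6.26% passed, 4.65% higher and 1.61% lower. The members were chosen with earlier results of these data known, so their count is a description and not an independent result. At an unadjusted p under 0.05 or under 0.01, 6 of the 8 members passed, Fbln2 being the addition, against 19.7% and 9.84% of all genes. The median log2 difference of the 8 genes was 0.54, against -0.02 over all genes. In whole tissue, more cells of a type and more RNA per cell cannot be told apart.

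**Figure D1:**
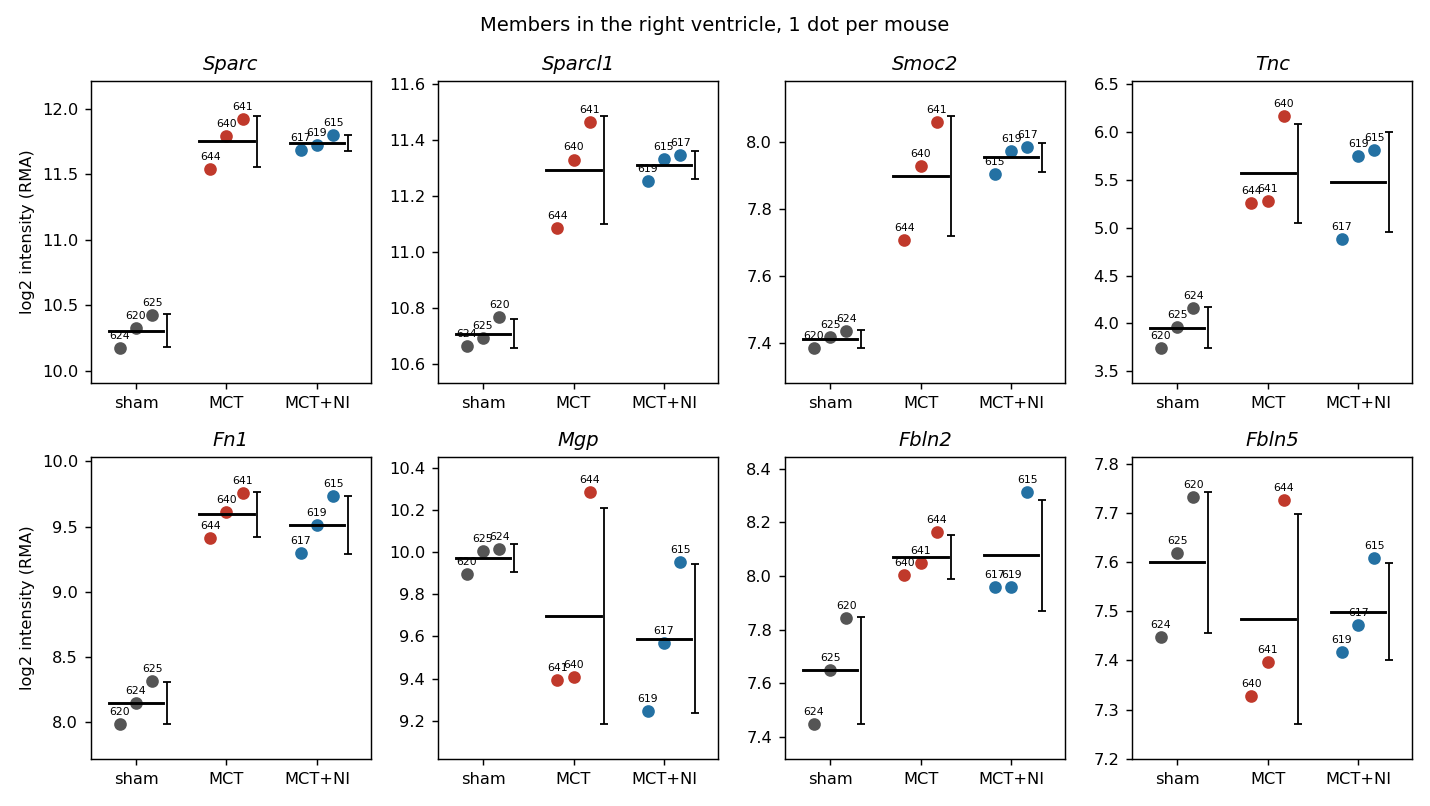
Log2 intensity (vertical axis) of the 8 measured genes, 1 panel per gene, with 1 dot per mouse in the sham, MCT and MCT+NI groups, a line for the group mean and a bar for 1 SD (n = 3). In the panels of Sparc, Sparcl1, Smoc2, Tnc, Fn1 and Fbln2 every MCT and MCT+NI mouse lies above every sham mouse, and in the panels of Mgp and Fbln5 the groups overlap; each panel has its own axis range.

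Sparc, the founding member of the collagen-binding SPARC family, had log2 values of 10.32, 10.17 and 10.43 in sham mice 620, 624 and 625, of 11.79, 11.92 and 11.54 in MCT mice 640, 641 and 644, and of 11.80, 11.68 and 11.72 in MCT+NI mice 615, 617 and 619. Every treated mouse lay more than 1 log2 unit above the highest sham mouse, and the MCT and MCT+NI mice overlapped. The sham mean was 10.31 ± 0.129 (SD, n = 3), the MCT mean 11.75 ± 0.194 and the MCT+NI mean 11.74 ± 0.061. Sparc rose 2.72-fold in MCT over sham mice (95% interval 2.34 to 3.17, log2 difference 1.45 ± 0.096 SE, adjusted p = 9.44e-05). It kept an adjusted p under 0.05 in both comparisons with sham when each of the 9 mice was left out in turn.

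Sparcl1, the anti-adhesive relative of SPARC that is also called hevin, had log2 values of 10.76, 10.66 and 10.69 in the sham mice, 11.33, 11.46 and 11.08 in the MCT mice and 11.33, 11.35 and 11.25 in the MCT+NI mice. All 6 treated mice lay above all sham mice, with MCT mouse 644 the lowest of them. Sparcl1 rose 1.50-fold in MCT mice (95% interval 1.32 to 1.71, adjusted p = 0.00372). Smoc2, which encodes a secreted calcium-binding protein of the same family, had log2 values of 7.38, 7.43 and 7.42 in sham, 7.93, 8.06 and 7.71 in MCT and 7.90, 7.98 and 7.97 in MCT+NI mice. Again no treated mouse reached down to the sham mice, which spanned less than 0.1 log2 unit, and mouse 644 was the lowest treated mouse. Smoc2 rose 1.40-fold in MCT mice (95% interval 1.24 to 1.59, adjusted p = 0.00776). With the atrial mean as a covariate, Sparcl1 still passed (log2 difference 0.45, adjusted p = 0.0365), whereas Smoc2 did not (0.34, adjusted p = 0.0584).

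The rise of Sparc was set against those of its 2 relatives. Within each MCT mouse, Sparc minus Sparcl1, each taken relative to its sham mean, was between 0.857 and 0.864 log2 units, against -0.09 to 0.13 in the sham mice. Sparc minus Smoc2 was between 0.94 and 0.97 in the MCT mice. Neither difference overlapped between the groups, and in an exact two-sided permutation test each gave p = 0.1, which is the smallest that 3 mice against 3 allow (6 such tests in all, adjusted p = 0.1). In the MCT+NI mice the same differences were 0.74 to 0.87 for Sparcl1 and at least 0.81 for Smoc2.

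Fn1, which encodes fibronectin, had log2 values of 7.99, 8.14 and 8.31 in sham, 9.61, 9.76 and 9.41 in MCT and 9.74, 9.29 and 9.51 in MCT+NI mice. The lowest treated mouse, MCT+NI mouse 617, stood about 1 log2 unit above the highest sham mouse. Fn1 rose 2.73-fold in MCT mice (95% interval 2.23 to 3.34, adjusted p = 0.000391). Its log2 difference was 1.45, and 1.43 with the atrial mean as a covariate (adjusted p = 0.0075).

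Tnc, which encodes tenascin-C, had log2 values of 3.74, 4.16 and 3.97 in sham mice, 6.17, 5.28 and 5.26 in MCT mice and 5.81, 4.88 and 5.75 in MCT+NI mice. The treated mice did not overlap the sham mice but spread widely, with an SD of 0.519 in the MCT group against 0.212 in the sham group. Tnc rose 3.05-fold in MCT mice, with a 95% interval of 1.90 to 4.91 and an adjusted p of 0.0146. That call was lost without sham mouse 620 (log2 difference 1.50, adjusted p = 0.0576) and with the atrial mean as a covariate (1.51, adjusted p = 0.113), with little change in size. Every sham value of Tnc lay below the array medians of 4.77 to 4.79, so its fold was taken over a low sham signal. The filter on low values, which left out genes below the median gene level, removed Tnc, so its rise was not tested in that setting.

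Promoter sequences are shown for the 3 measured genes with a RefSeq window that ends at the annotated start. These were a strongly raised gene (Sparc), a gene raised with a wide spread between mice (Tnc) and a gene that did not pass (Fbln5). RefSeq promoters were at hand for 4 of the 8 measured genes, and that of Fbln2 is left out because its window lies inside the annotated gene. Each run below gives the 150 bases before the annotated start, 5′ to 3′ on the strand of the gene, which is the minus strand in all 3 (GRCm38.p6). They span chr11:55420081-55420230 for Sparc, chr4:64047016-64047165 for Tnc and chr12:101819120-101819269 for Fbln5. Capitals mark the matches to 6 motifs searched on both strands.
Sparc: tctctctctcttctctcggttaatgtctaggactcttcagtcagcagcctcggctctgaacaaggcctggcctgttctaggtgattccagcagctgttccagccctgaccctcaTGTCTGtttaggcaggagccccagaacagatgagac
Tnc: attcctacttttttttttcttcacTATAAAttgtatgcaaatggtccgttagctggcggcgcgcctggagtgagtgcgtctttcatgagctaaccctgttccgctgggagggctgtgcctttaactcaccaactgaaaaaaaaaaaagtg
Fbln5: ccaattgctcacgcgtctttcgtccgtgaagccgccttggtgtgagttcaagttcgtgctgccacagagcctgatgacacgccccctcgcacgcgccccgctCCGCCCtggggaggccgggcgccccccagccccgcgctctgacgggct
In Sparc the capitals mark the Smad element CAGACA on the reverse strand, 36 to 31 bases before the annotated start. In Tnc they mark the letters of the TATA box motif (TATAAA), 126 to 121 bases before it. In Fbln5 they mark the GC box motif (GGGCGG) on the reverse strand, 48 to 43 bases before the start. Among 27025 promoters of the same length, 10.32% held CAGACA, 8.08% TATAAA and 28.97% GGGCGG. The other motifs were the AP-1 site TGANTCA, the TEAD site CATTCC and the E-box CACGTG, held by 4.27%, 7.64% and 4.3% of all promoters and by none of these 3. The share of G and C bases was 54.0% in Sparc, 44.7% in Tnc and 70.0% in Fbln5, against a median of 54.0% over all promoters. A match describes the letters and does not show that a factor binds there.

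Mgp had log2 values of 9.90, 10.02 and 10.01 in sham mice, 9.41, 9.39 and 10.29 in MCT mice and 9.95, 9.57 and 9.25 in MCT+NI mice. MCT mouse 644 was the highest of all 9, while the other MCT mice lay below every sham mouse, so the groups overlapped. The log2 difference of MCT from sham mice was -0.28, with a 95% interval from -0.83 to 0.28 (adjusted p = 0.591). The treated mice with high atrial transcripts, 644 and 615, were also those with the highest Mgp. Without these mice the log2 difference was -0.57 in MCT (adjusted p = 0.0214) and -0.57 in MCT+NI mice (adjusted p = 0.0261), and with the atrial mean as a covariate it had the opposite sign, 0.32 (adjusted p = 0.0556) and 0.26 (adjusted p = 0.137). The sign of the Mgp difference therefore depended on how the atrial transcripts were treated. The fit without mice 644 and 615 cannot separate those transcripts from treatment, and the fit with the covariate rests largely on these mice.

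Neither fibulin passed. Fbln2, an extracellular glycoprotein gene active in valve and vessel wall, had log2 values of 7.84, 7.45 and 7.65 in sham, 8.00, 8.05 and 8.16 in MCT and 8.32, 7.96 and 7.96 in MCT+NI mice. No treated mouse overlapped a sham mouse, but the gap between mouse 620 and the lowest treated mice was small. The ratio of MCT to sham was 1.34 (95% interval 1.11 to 1.62), with an unadjusted p of 0.00666 and an adjusted p of 0.0806 in limma, so that Fbln2 did not pass. Fbln5, which is needed for elastic fibre assembly, had log2 values of 7.73, 7.45 and 7.62 in sham, 7.33, 7.40 and 7.73 in MCT and 7.61, 7.47 and 7.42 in MCT+NI mice. The groups overlapped, and the log2 difference of MCT from sham was -0.12 (95% interval -0.37 to 0.14, adjusted p = 0.634). With the atrial mean as a covariate it was 0.09 (adjusted p = 0.787). Fbln2 minus Fbln5, each relative to its sham mean, lay between 0.39 and 0.63 in the MCT mice and between -0.05 and 0.06 in the sham mice, with no overlap (exact two-sided permutation p = 0.1, the smallest possible).

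**Figure D2:**
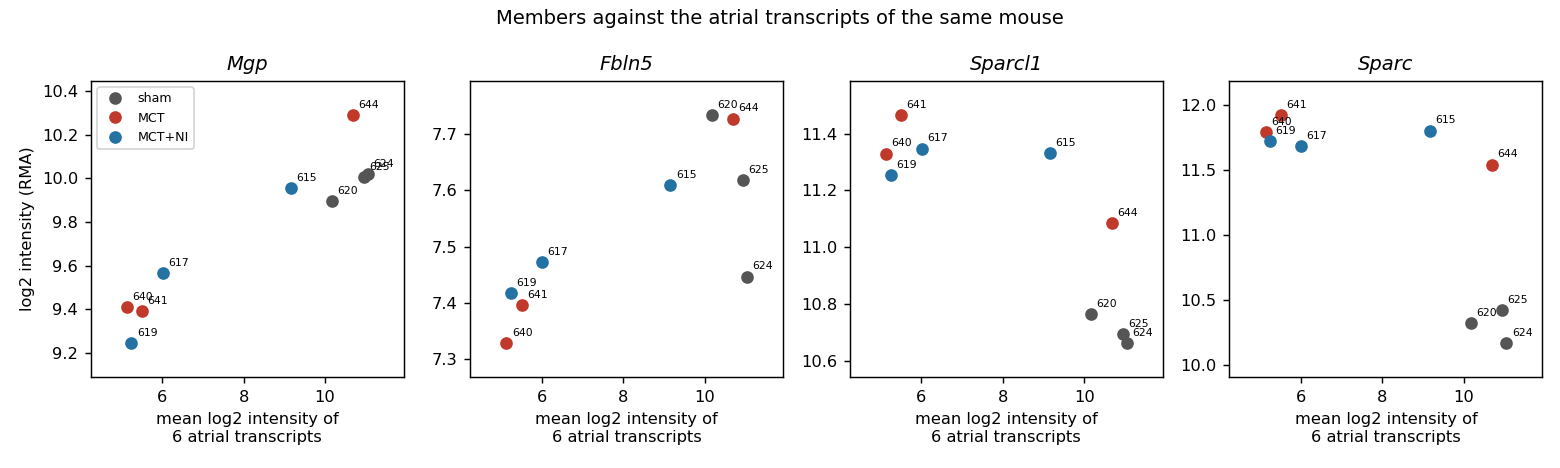
Log2 intensity of Mgp, Fbln5, Sparcl1 and Sparc (vertical axes) against the mean log2 value of 6 atrial genes (horizontal axes), 1 point per mouse, coloured by group. MCT mouse 644, with an atrial mean of 10.69, has the highest Mgp value (10.29), while its Sparc value (11.54) remains above all sham mice.

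In MCT against sham, 6 of the 8 measured genes were higher in every treated mouse than in every sham mouse, and 11.7% of all genes were (21.9% counting both directions). The same 6 genes were separated in MCT+NI against sham, where 10.7% of all genes were higher without overlap and 21.0% were apart in either direction. Both comparisons use the same 3 sham mice.

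In MCT+NI against sham mice, 5 of the 8 genes again passed, all higher, where 6.26% of all genes passed (4.52% higher, 1.75% lower). With Fbln2, 6 passed at an unadjusted p under 0.05 or under 0.01, against 19.5% and 9.71% of all genes. Sparc rose 2.69-fold (adjusted p = 9.31e-05) and Fn1 rose 2.58-fold (adjusted p = 0.000546). Sparcl1 rose 1.52-fold (adjusted p = 0.00335), Smoc2 1.46-fold (adjusted p = 0.00466) and Tnc 2.87-fold (adjusted p = 0.0195). The fold of Tnc was again taken over its low sham signal. The Tnc call was lost in 4 of the 9 fits that left out 1 mouse: without sham mouse 620 (adjusted p = 0.0679), sham mouse 625 (0.0605), MCT+NI mouse 615 (0.0796) or MCT+NI mouse 619 (0.0873). It was also lost without mice 644 and 615 together (log2 difference 1.36, adjusted p = 0.0986) and with every probe set tested as its own row (adjusted p = 0.0515). With the atrial mean as a covariate, Sparc, Sparcl1 and Fn1 passed, and Smoc2 (adjusted p = 0.0507) and Tnc (adjusted p = 0.179) did not. Fbln2 was 1.35 times the sham level, with an adjusted p of 0.0762. The log2 differences of Mgp (-0.38, adjusted p = 0.446) and Fbln5 (-0.10, adjusted p = 0.684) did not pass.

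Between MCT+NI and MCT mice, none of the 8 genes passed limma at an adjusted p under 0.05, none had an unadjusted p under 0.05, and the values of all 8 overlapped between the groups, where 6.08% of all genes did not overlap (3.11% higher in MCT+NI mice). No gene of the 18820 passed either (0%), and 2.90% had an unadjusted p under 0.05. The Sparc log2 difference was -0.02 (95% interval -0.23 to 0.20), against a rise of 1.45 over sham in the MCT mice. That of Fn1 was -0.08 (-0.37 to 0.21), that of Sparcl1 0.02 (-0.17 to 0.21) and that of Smoc2 0.06 (-0.13 to 0.24). Tnc had the widest interval, from -0.77 to 0.60 around -0.09. Mgp (-0.11, -0.66 to 0.45), Fbln2 (0.01, -0.27 to 0.28) and Fbln5 (0.02, -0.24 to 0.27) completed the set. The comparison shares its MCT mice with that of MCT against sham, and a p that misses the threshold does not show that the diets acted alike. The mice put on arrays were matched for disease severity, so a diet effect that goes with severity could be missed here.

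**Figure D3:**
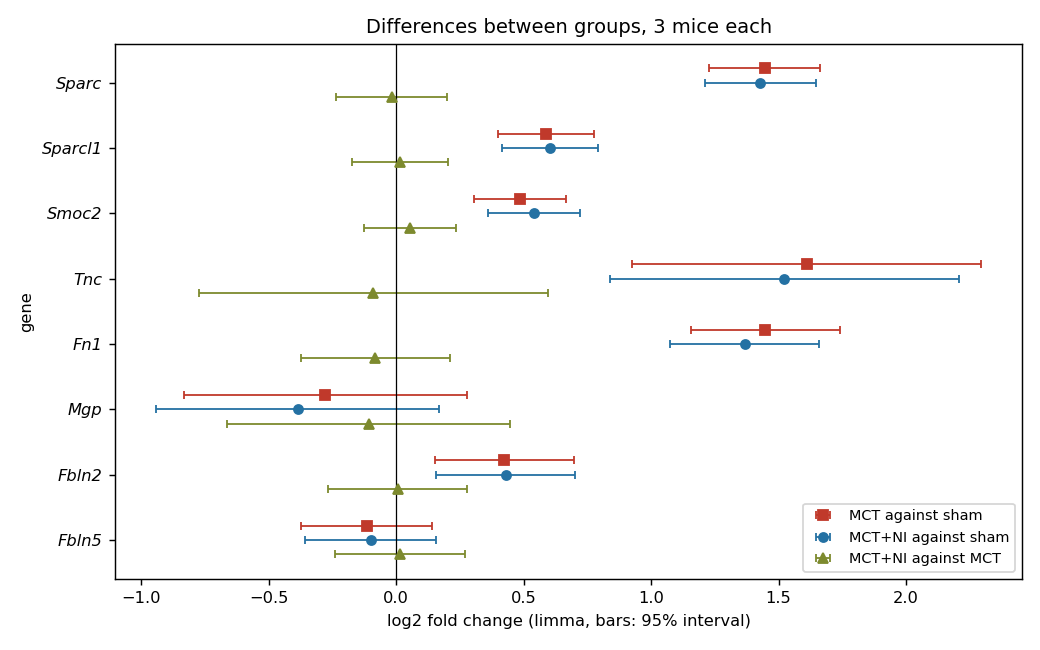
Log2 difference of each measured gene (horizontal axis) with its 95% interval from limma, for MCT against sham, MCT+NI against sham and MCT+NI against MCT. Sparc (1.45), Fn1 (1.45) and Tnc (1.61) lie farthest to the right in MCT against sham, and all 8 intervals of MCT+NI against MCT include 0.

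Around these genes, 8 lists of related genes held 67 measured genes other than the members. The lists, too, were chosen with earlier results of these data known, so their counts describe them only. In MCT against sham, 14 of the 67 passed (20.9%), 13 higher and 1 lower. Over all genes, 6.26% passed (4.65% higher, 1.61% lower), the share to set beside each list below in this comparison. The median log2 difference of the 67 was 0.03, against -0.02 over all genes. In the SPARC family, 2 of 5 passed: Fstl1, a secreted follistatin-like protein, rose with a log2 difference of 1.02 (adjusted p = 0.000765), and Spock2, a proteoglycan with a SPARC domain, fell by 1.04 on the log2 scale (adjusted p = 0.0464). Spock2 was 6.06 in MCT mouse 644 against 5.15 and 5.03 in mice 640 and 641, and its call was lost with the atrial covariate (-0.56, adjusted p = 0.285) and in 8 of the 9 fits that left out 1 mouse. Without mice 644 and 615 together it passed (-1.36, adjusted p = 0.0085), in a fit where treatment and atrial transcripts cannot be told apart. Fstl1 was between 8.66 and 9.09 in sham and between 9.86 and 9.92 in MCT mice, without overlap. Smoc1, the close relative of Smoc2, did not pass in MCT mice (-1.08, adjusted p = 0.0612) and fell in MCT+NI mice (-1.30, adjusted p = 0.0297). Spock2 fell there too (-1.03, adjusted p = 0.0479). Smoc1 kept its call in 5 and Spock2 in 2 of the 9 fits that left out 1 mouse. Neither passed there with the atrial covariate (Smoc1 -0.79, adjusted p = 0.306; Spock2 -0.51, adjusted p = 0.403).

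Of the other matricellular proteins, 2 of 13 passed, where 6.26% of all genes did. Thbs1, which encodes the platelet and matrix protein thrombospondin-1, had log2 values of 4.96 to 5.20 in the sham mice and 8.09 to 8.49 in the MCT mice and rose by 3.20 (adjusted p = 2.73e-06). Postn, which encodes periostin of activated fibroblasts, rose by 1.15 (adjusted p = 0.0125), and did not pass with the atrial covariate (1.29, adjusted p = 0.0541). Its call was kept in 6 of the 9 fits that left out 1 mouse. Among elastin and microfibril proteins, 3 of 17 passed, all higher: Mmrn2, an endothelial matrix protein (1.03, adjusted p = 0.00081), Emilin1, a glycoprotein of elastic fibres (0.62, adjusted p = 0.00708), and Mfap5, a microfibril protein (0.76, adjusted p = 0.0114). Eln, which encodes elastin itself, did not pass (0.41, adjusted p = 0.254). None of the 3 other tenascins, 4 SIBLING phosphoproteins or 4 other fibulins and hemicentins passed in limma. At an unadjusted p under 0.05 there were 1, 0 and 1 of them, against 19.7% of all genes.

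Of the 8 genes of the vitamin K cycle and mineralization, by which matrix Gla protein is carboxylated and acts, 2 rose: Gas6, a vitamin K-dependent receptor ligand (0.31, adjusted p = 0.0386), and Alpl, the tissue alkaline phosphatase (0.38, adjusted p = 0.0470). With the atrial covariate, Gas6 (0.38, adjusted p = 0.0755) and Alpl (0.41, adjusted p = 0.160) did not pass, though their differences were no smaller. Without mice 644 and 615 they did not pass either (0.28 and 0.34, adjusted p = 0.161 and 0.188). Of the 9 fits that left out 1 mouse, Gas6 kept its call in 2 and Alpl in 1. Of 13 receptors of fibronectin, osteopontin and SPARC, 5 rose and none fell, where 4.65% of all genes were called higher. The median log2 difference of these receptors was 0.35. The integrin β subunits Itgb3 (0.80, adjusted p = 0.00225) and Itgb1 (0.31, adjusted p = 0.00332) led this list. The integrin α subunits Itga9, which pairs with β1 and binds tenascin-C (0.49, adjusted p = 0.00574), and Itga8 (0.53, adjusted p = 0.0115) followed. With the atrial covariate, Itga9 (0.46, adjusted p = 0.0620) and Itga8 (0.57, adjusted p = 0.0597) did not pass, with little change in size.

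Against sham, where 6.26% of all genes passed (4.52% higher, 1.75% lower), MCT+NI mice had 13 of the 67 related genes past the threshold. Of these, 10 were higher and 3 lower. Fstl1 (0.81), Thbs1 (3.03), Postn (0.99), Mmrn2 (0.84) and the integrin subunits Itgb3 (0.64), Itgb1 (0.30), Itga9 (0.50) and Itga8 (0.47) were among those higher. In the elastin and microfibril list, Emilin1 (0.45, adjusted p = 0.0335) and Adamtsl2 (0.62, adjusted p = 0.0398) rose and Emilin3 fell (-0.40, adjusted p = 0.0361). Of the 9 fits that left out 1 mouse, Postn kept its call in 5, Emilin1 in 3, Adamtsl2 in 2 and Emilin3 in 1. With the atrial covariate 6 of the 67 passed, all higher, so that none of the 3 lower calls remained (Emilin3 -0.43, adjusted p = 0.183). Adamtsl2 (0.75), Postn (1.14), Itgb1 (0.26), Itga9 (0.47) and Itga8 (0.52) did not pass in that fit either. Between MCT+NI and MCT mice none of the 67 passed, and 1 had an unadjusted p under 0.05 in limma, against 2.90% of all genes. This gene was Tnxb, which encodes tenascin-X and was lower by 0.17 on the log2 scale. Of the 67 log2 differences 20 were positive, with a median of -0.05, against 8963 of 18820 and a median of -0.005 over all genes. Every MCT+NI mouse lay below every MCT mouse in Fstl1 (9.56 to 9.85 against 9.86 to 9.92) and Mmrn2 (8.31 to 8.41 against 8.49 to 8.58). Over all genes, 6.08% did not overlap in this comparison, counting both directions.

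**Figure D4:**
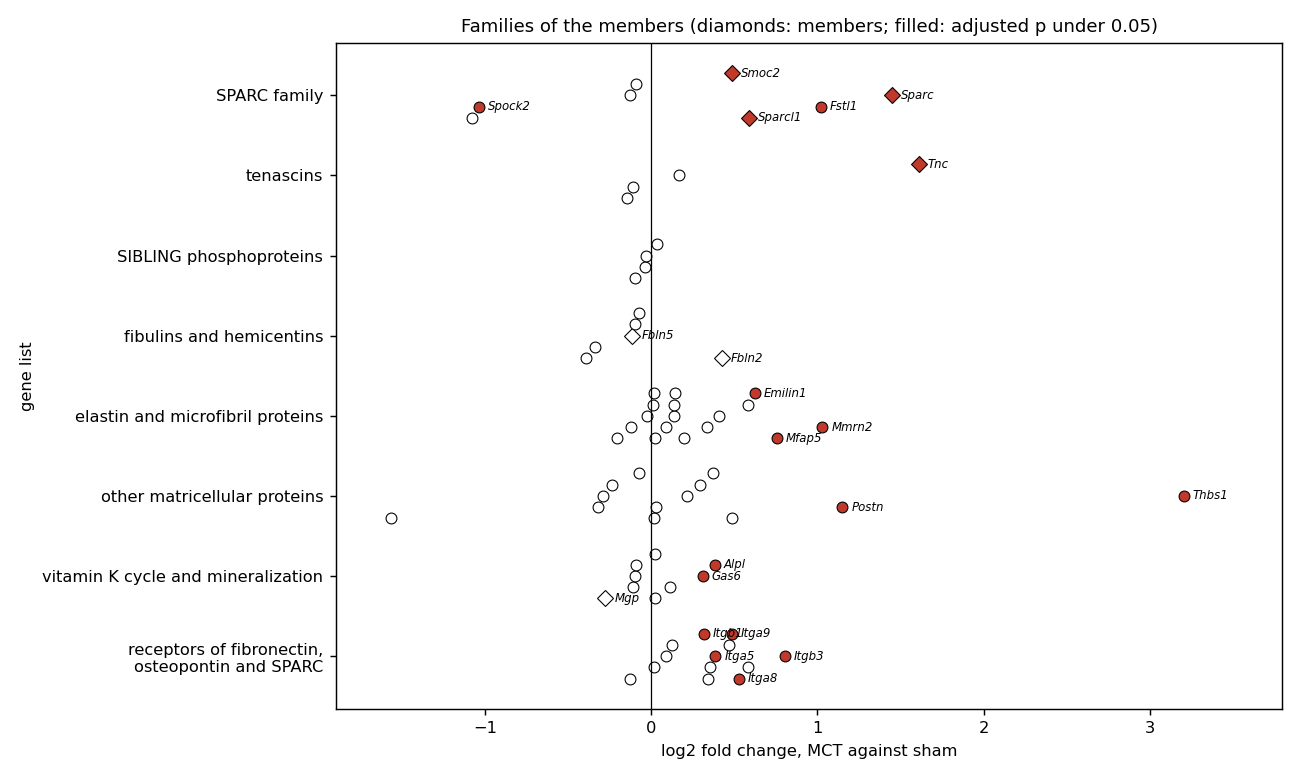
Log2 difference of MCT from sham mice (horizontal axis) for every measured gene of the 8 related lists (rows), with diamonds for the named members, circles for the other genes and filled symbols for those with an adjusted p under 0.05. Thbs1 stands farthest to the right at 3.20, and all called genes but Spock2 (-1.04) lie right of 0.

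The nearest genes to each raised member were found by the root mean square difference of log2 values, each relative to its sham mean, over the 9 mice, which share groups and libraries. Capg, an actin-capping protein (0.098), Pvt1, a long non-coding RNA (0.106), and Anxa2, which encodes annexin A2 (0.107), were nearest to Sparc. Garre1 (0.0505), Arhgap28 (0.051) and the small GTPase gene Rhob (0.0756) were nearest to Sparcl1, and Fhl3 (0.0642), the potassium channel gene Kcnj8 of pericytes (0.0681) and Ldb2 (0.0681) to Smoc2. For Fn1 they were Cd93 (0.0782), an endothelial receptor, Mcam (0.0806), an adhesion molecule of vessels, and Sparc itself (0.114). Tnc had no equally close neighbour: Prc1, a cytokinesis protein (0.242), D17H6S56E-5 (0.248) and Bcl6b (0.253) came first.

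Markers of the cells that use these genes moved with the groups in part. Over all genes, 6.26% passed in MCT against sham. Of 10 fibroblast markers, 3 rose in MCT mice, the collagen genes Col1a1 (0.97), Col1a2 (0.73) and Col3a1 (1.18), and the brightest of the list, Dcn (0.03) and Gsn (-0.26), did not pass. The mean of the list was 8.62 to 8.82 in sham, 8.97 to 9.12 in MCT and 8.80 to 9.11 in MCT+NI mice. Of 12 smooth muscle and pericyte markers, 7 rose, with list means of 8.52 to 8.55, 8.76 to 8.97 and 8.83 to 8.88. The brightest of them, Des (mean 11.49 in sham and 11.47 in MCT mice) and Abcc9 (11.04 and 11.06), differed little. Cnn1 had a lower mean in MCT mice (5.84 and 5.63). Of 12 macrophage markers, 4 rose and 1 fell (6.91 to 7.15, 7.16 to 7.52 and 7.04 to 7.45), and of 10 endothelial markers, 4 rose and 1 fell (8.52 to 8.74, 8.70 to 8.73 and 8.57 to 8.81). Of 8 activated fibroblast markers, Meox1 (2.13) and Postn rose. In that list 6 of the 8 log2 differences were positive, with a median of 0.23. Comp had a lower mean in MCT mice (6.19 in sham and 4.63 in MCT mice), with overlap. Of 9 epicardial and mesothelial markers, 1 rose, Wt1, unlike most of its list. There 4 of the 9 differences were positive, with a median of -0.17, and Upk3b had means of 6.37 in sham and 5.49 in MCT mice. Valve interstitial and cartilage and bone markers, 7 each, had none past the threshold. The part of these cell types in the changes of Sparc, Sparcl1, Smoc2, Tnc and Fn1 was not tested.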

How the data were processed

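RV RNA from 9 mice was hybridised by the authors to Affymetrix mouse gene 1.1 ST arrays, 1 per mouse. The deposited values are log2 intensities that the authors made by robust multi-array averaging (RMA), which sets the arrays to a common distribution; array medians were 4.77 to 4.79. Per the methods, probes were regrouped by Entrez gene, whereas the deposited rows carry the manufacturer's numbers. The version of the RMA software is not given in the sources used here, and the number of arrays limits the precision.

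Of 35556 probe sets, 12457 had no gene in the platform annotation, 1881 several and 21218 a single gene. A gene was represented by its brightest such probe set (18820 genes, 1386 with a choice). Groups came from the labels. A linear model with 1 mean per group was fitted with limma 3.58.1 (R 4.3.3) over all 9 arrays, with empirical Bayes moderation following intensity. Tests were two-sided, adjusted by Benjamini-Hochberg over all genes and called at an adjusted p under 0.05. The script was tested on simulated data. Limma p-values set a difference against the spread between mice within groups of 3, pooled over all 9 arrays and moderated across genes. The MCT+NI mice therefore also bear on the p of MCT against sham.

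Alternatives were averaging the probe sets of each gene, every probe set as its own row, a filter on low values, no intensity trend, 2 groups at a time, quantile normalization, array weights, the atrial covariate, unadjusted p, and leaving out each mouse; leaving out mice 644 and 615 together was added after seeing the data. Named genes were all members, per list up to 4 called genes of smallest p, the 3 nearest profiles per called member and the 2 brightest markers of a list, of which only those bearing on a result are printed. Eln, Tnxb, Smoc1 in MCT mice and the called collagen markers were named after their values were seen. The members and lists were chosen with earlier results of these data known. Promoters are RefSeq sequences (GRCm38.p6).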

Additional observations from a re-analysis of the deposited data

How the results depend on the processing

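No paired analysis was possible because the mouse numbers in the labels are not shared between groups. Sparc, Sparcl1, Smoc2 and Fn1 kept an adjusted p under 0.05 in both comparisons with sham without any 1 mouse. With the atrial covariate, 3 of the 8 genes were called in each comparison with sham, and Mgp (0.32 in MCT, 0.26 in MCT+NI) and Fbln5 (0.0895 and 0.12) changed sign. The related genes called in MCT against sham were 9 with the covariate, all higher, and 25 at an unadjusted p under 0.05, and 9 (without MCT mouse 641) to 14 when 1 mouse was left out. In MCT+NI against sham they were 6 with every probe set as its own row, 6 with the covariate, 24 at an unadjusted p under 0.05, and 6 (without sham mouse 624) or 8 (without MCT+NI mouse 615 or 619) to 12 when 1 mouse was left out. In MCT+NI against MCT, 1 related gene had an unadjusted p under 0.05, against 2.90% of all genes.

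Over all genes, 1179 were called in MCT against sham, 506 with the covariate, 3714 and 1851 at an unadjusted p under 0.05 and 0.01, and 676 (without MCT mouse 640) or 767 (without MCT mouse 641) to 1196 without 1 mouse. In MCT+NI against sham, 1179 were called, 401 with the covariate, 3674 and 1828 unadjusted, 720 without mice 644 and 615 together, and 625 (without MCT+NI mouse 619) or 682 (without MCT+NI mouse 615) to 1183 without 1 mouse. In MCT+NI against MCT, 1 was called with the covariate, and 545 and 71 unadjusted. The cause of these shifts was not tested.

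The near-zero differences between MCT+NI and MCT mice changed sign readily. Leaving out 1 mouse, the log2 difference ran from -0.12 to 0.068 for Sparc, -0.087 to 0.10 for Sparcl1, -0.041 to 0.14 for Smoc2, -0.25 to 0.21 for Tnc, -0.19 to 0.029 for Fn1, -0.29 to 0.19 for Mgp, -0.11 to 0.066 for Fbln2 and -0.063 to 0.14 for Fbln5. Without mice 644 and 615 it was -0.10 for Sparcl1, -0.016 for Smoc2, 0.0063 for Mgp and -0.067 for Fbln2. Against sham, Mgp ran from -0.57 to -0.12 and Fbln5 from -0.24 to -0.04 in MCT mice. Fbln2 passed in MCT against sham only without MCT+NI mouse 615 (adjusted p = 0.0480) among the 9 fits that left out 1 mouse.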
